A study of Mus musculus with 8 samples.

Results

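The POU factors described here are 8 mouse transcription factor genes: Pou5f1, which codes for Oct4, the neural genes Pou3f1, Pou3f2, Pou3f3 and Pou3f4, and Pou2f1, Pou4f1 and Pou6f1. Their probes were found by matching the accession of each array probe to a RefSeq gene table, so no measured value chose them. Of the 8 genes, 7 had a probe, of 18842 named genes in all. They had 11 probes among the 41174 of the array, and no probe was matched to Pou6f1. Expression was measured with a single dye on Agilent whole mouse genome arrays in N31 cells, a mouse neural progenitor line (NPC) made from embryonic stem cells. There were 2 arrays in each of 4 groups: W20-expressing cells at 72 h of reprogramming, EGFP-expressing cells at 72 h, W20-expressing NPC and EGFP-expressing NPC. The study asked, as its title has it, whether reprogramming can be sped up with proteins of bacteria. W20 was the protein under test and EGFP, a fluorescent protein, the control that every comparison of W20 rests on. The NPC medium held EGF and bFGF at 10 ng/ml each. The cells at 72 h had been treated with Dox (40 ng/ml): the first 48 h were spent in NPC medium, and the last 24 h in one containing 10% KSR plus 1000 U/ml of LIF, and the labels used here do not say what Dox induced. Thus time, medium and Dox changed together. The labels name 1 line and do not say whether the replicates were separate cultures. The p-values therefore refer only to array-to-array spread, which may be technical.

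POU factors bind DNA through a POU-specific domain and a POU homeodomain, and many of them recognise the octamer motif. Oct4 keeps embryonic stem cells pluripotent and is one of the factors used to reprogram somatic cells, in which it acts together with Sox2. The genes of class III, Pou3f1 (Oct6), Pou3f2 (Brn2), Pou3f3 (Brn1) and Pou3f4 (Brn4), are expressed in the developing nervous system, where Brn1 and Brn2 act with Sox2 in neural progenitors. Pou2f1 (Oct1) is expressed in nearly all cells, and Pou4f1 (Brn3a) is known for its role in sensory neurons.

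The promoters of 3 members are shown because their genes stand for the 3 patterns in the values. Pou3f3 was lower with W20 and at 72 h, Pou2f1 was higher at 72 h, and Pou5f1 stayed under the detection limit. Both W20 calls of Pou3f3 were fragile, as given below. Each promoter runs from 250 bases before the start site to 50 after it, 5′ to 3′ on the gene's strand. The letters are RefSeq sequence of GRCm38.p6, with CpG sites in capitals. The windows are chr1:42695518-42695817 on the plus strand for Pou3f3, chr1:166002585-166002884 on the minus strand for Pou2f1 and chr17:35505782-35506081 on the plus strand for Pou5f1.
Pou3f3: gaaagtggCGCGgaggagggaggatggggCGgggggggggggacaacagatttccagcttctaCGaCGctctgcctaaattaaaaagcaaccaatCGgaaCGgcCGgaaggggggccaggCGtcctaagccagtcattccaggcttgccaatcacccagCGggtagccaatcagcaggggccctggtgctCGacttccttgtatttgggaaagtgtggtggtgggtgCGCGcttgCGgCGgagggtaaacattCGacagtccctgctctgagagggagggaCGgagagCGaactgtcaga
Pou2f1: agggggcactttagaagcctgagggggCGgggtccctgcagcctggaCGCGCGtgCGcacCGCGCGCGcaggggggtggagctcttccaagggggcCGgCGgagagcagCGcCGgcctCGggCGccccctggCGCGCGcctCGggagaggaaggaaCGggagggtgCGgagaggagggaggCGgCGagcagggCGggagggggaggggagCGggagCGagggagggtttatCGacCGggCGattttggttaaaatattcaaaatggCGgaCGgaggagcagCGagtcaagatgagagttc
Pou5f1: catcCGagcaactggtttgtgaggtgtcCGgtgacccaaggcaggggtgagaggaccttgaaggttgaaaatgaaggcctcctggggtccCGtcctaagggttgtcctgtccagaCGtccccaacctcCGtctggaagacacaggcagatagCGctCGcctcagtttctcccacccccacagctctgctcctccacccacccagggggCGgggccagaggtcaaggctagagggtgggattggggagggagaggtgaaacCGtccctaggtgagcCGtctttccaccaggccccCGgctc

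The Pou3f3 window held 18 CpG sites, the Pou2f1 window 32 and the Pou5f1 window 11, against a median of 7 over the 32851 promoters of the table. The table held 10 promoters of 7 members and none of Pou3f1. The Pou4f1 promoter had the most CpG sites of the 10, 57, more than in 99.8% of all promoters. The other 2 Pou2f1 promoters had 2 each and the second Pou5f1 promoter 6. The exact octamer ATGCAAAT, searched on both strands, was in 0 of the 10 windows and in 1.74% of all promoters. With any 1 of its letters left free it was in 1 of the 10, that of Pou6f1, as CTTTGCAT at position -139 from the start site, and in 18.6% of all promoters. The 8-letter motif GCATTAAT, of the kind that class III factors bind, was in 0 of the 10 and in 0.356% of all. These counts describe letters in a window and are not binding sites.

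The share of spots well above background was 57% to 62.4% per array, and replicate arrays correlated with r of 0.9984 to 0.9988 over the 22026 probes well above background on all 8 arrays. The arrays at 72 h were on 1 slide and the NPC arrays on another, so slide and stage cannot be told apart. W20 and EGFP arrays shared a slide at each stage, at different positions on it. Marker lists were set against the label of the cells. Of 19 neural progenitor markers with a probe, 12 were well above background on both W20 NPC arrays and 14 on both EGFP NPC arrays, and Olig1 and Olig2 were not on any of the 8 arrays. Of 5 immune markers with a probe, Ptprc, Aif1, Itgam and Tyrobp were well above background on 0 of 8 arrays, and Csf1r on 1, of EGFP cells at 72 h. Mesenchymal markers were: 8 of 9 on both W20 NPC arrays and 9 of 9 on both EGFP NPC arrays. In bulk RNA, fewer cells of a type and less RNA per cell cannot be told apart.

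Signal, the background-corrected brightness of a spot in intensity units, divided the members into those above and those below the detection limit of the arrays. A probe counts as well above background by the scanner software's own flag. Over 88 pairs of a member probe and an array, 48 had that flag. The probe of Pou3f1, the 3 of Pou2f1 and 1 of the 2 of Pou4f1 had it on all 8 arrays. Levels of different probes are not comparable, so each is set only against itself.

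**Figure D1:**
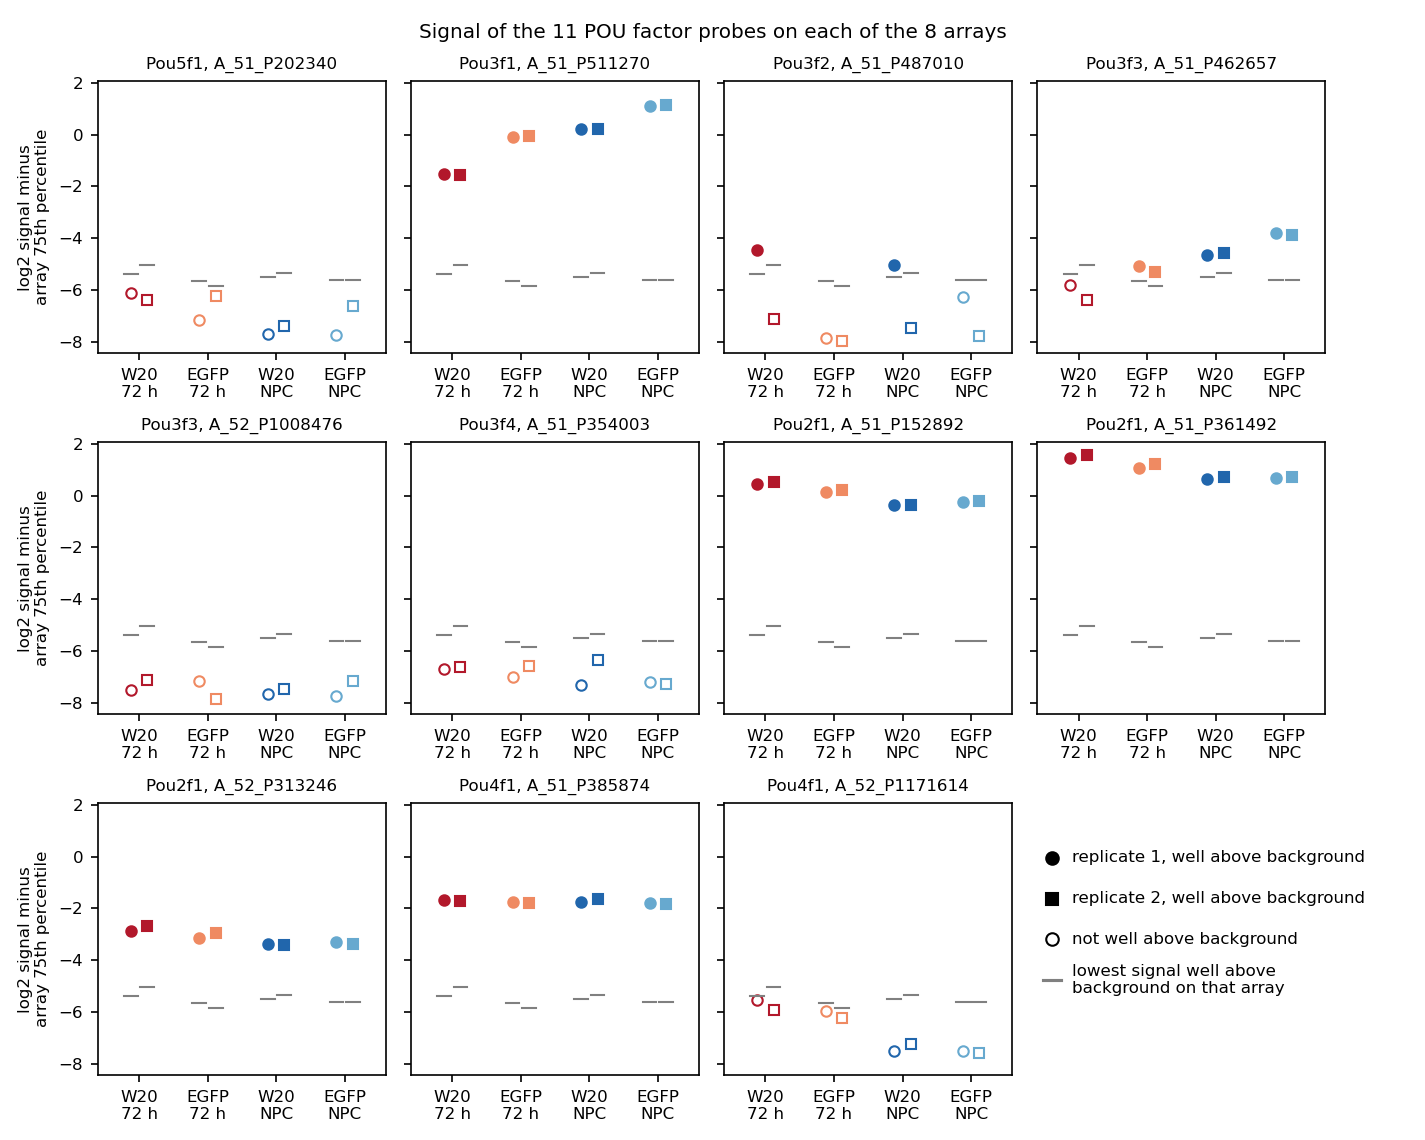
Signal of each of the 11 POU factor probes on the 8 arrays, as log2 of the processed signal minus the array's 75th percentile (y axis, log2 units), by group (x axis). Circles are replicate 1 and squares replicate 2, filled symbols are well above background, and grey lines mark the lowest signal well above background on that array. The Pou3f1 symbols fall into 4 separate steps, and the Pou5f1 symbols are open on all 8 arrays.

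Oct4 was not detected in the sense of that flag. The single Pou5f1 probe, A_51_P202340, gave 11.9 and 9.88 intensity units in W20 cells at 72 h, 6.51 and 12 in EGFP cells at 72 h, 4.19 and 5.08 in W20 NPC, and 4.09 and 8.88 in EGFP NPC. The lowest signal flagged as well above background was between 15.7 and 25.2 on the 8 arrays, so every Pou5f1 value lay under it. By the software's weaker flag, a signal positive and significantly different from the local background, 6 of the 8 spots passed, among them all 4 at 72 h. The values of W20 and EGFP cells overlapped at each stage. Both values of W20 cells at 72 h were above both of W20 NPC, while those of EGFP cells at 72 h and EGFP NPC overlapped. With no array well above background the probe was not tested and no fold is given. A level under that limit could not be measured with these arrays. Which forms of the Pou5f1 transcript this probe reads was not tested.

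Pou3f1, also called Oct6 or Tst-1, is a class III factor of the neural lineage and of Schwann cells, and had the largest W20 differences of the tested members. Its probe A_51_P511270 gave 286 and 281 intensity units in W20 cells at 72 h, 873 and 874 in EGFP cells at 72 h, 1014 and 985 in W20 NPC, and 1885 and 1926 in EGFP NPC. The 4 groups did not overlap. With 2 arrays a group, groups can lie apart without a call. For this and the members below, the share of all probes without overlap was not counted. W20 cells were the lower at each stage, and cells at 72 h were lower than NPC of the same kind. From low to high, the scaled log2 level was -1.54 in W20 cells at 72 h, -0.07 in EGFP cells at 72 h, 0.21 in W20 NPC and 1.12 in EGFP NPC (SD 0 to 0.04, n = 2 each). Each step between neighbours exceeded the SD within the groups.

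The test was limma's moderated test on log2 signal scaled to each array's 75th percentile, over the 25725 probes that had the flag on both arrays of at least 1 group, with Benjamini-Hochberg adjustment over all of them and a threshold of 0.05. A difference is given with its standard error (SE), from 2 arrays a group. In NPC, Pou3f1 fell by 0.91 ± 0.0377 log2 units with W20 (1.88-fold, adjusted p = 0.000162). At 72 h it fell by 1.47 ± 0.0377 with W20 (2.77-fold, adjusted p = 6.88e-05). Among the 25725 probes, 0.82% had a difference as low or lower at 72 h and 3.48% in NPC. Over 72 h it fell by 1.75 ± 0.0377 in W20 cells (3.37-fold, adjusted p = 1.57e-06) and by 1.19 ± 0.0377 in EGFP cells (2.29-fold, adjusted p = 8.06e-06). The W20 effect at 72 h minus that in NPC was -0.56 ± 0.0533 (adjusted p = 0.00247), so the W20 effect was larger at 72 h by the test of the difference itself. These comparisons share arrays.

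Mesenchymal markers moved in the same comparisons. In NPC, 9 of the 9 fell with W20 and at 72 h 8 of 9 fell, against 19.2% of all probes lower at each stage. Of the 9, 1 entered the test only through EGFP NPC, where it was high, which favours a count as lower with W20 in NPC. Their summed signal was 73985 and 76332 intensity units in W20 cells at 72 h, against 127232 and 124919 in EGFP cells at 72 h. In NPC it was 89439 and 84366 with W20, against 131012 and 147319 with EGFP. The summed signal of 8 astrocyte markers was 23516 and 22384 in W20 cells at 72 h against 37806 and 36400 in EGFP cells. In NPC the astrocyte sum was 21423 and 20453 with W20 against 39853 and 41334 with EGFP. The sums of both lists were not scaled to the array's 75th percentile, and bright probes weigh most in them. That percentile was 826.7 and 826.5 with W20 and 938 and 900.9 with EGFP at 72 h. In NPC it was 878 and 850.8 with W20 and 882 and 871.3 with EGFP. Of 7 tested astrocyte markers, 2 were higher and 4 lower with W20 at 72 h, and 0 higher and 5 lower in NPC. The shares of all probes were 23.3% higher and 19.2% lower at 72 h, and 26.6% and 19.2% in NPC. Of the 7, 1 entered the test only through EGFP NPC, where it was high. Whether other kinds of cells had a part in the Pou3f1 and Pou3f3 differences was not tested.

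Pou3f3, or Brn1, which with Brn2 acts in the production of cortical neurons, was near the detection limit. Its probe A_51_P462657 gave 14.8 and 9.92 intensity units in W20 cells at 72 h, 27.6 and 22.9 in EGFP cells at 72 h, 34.4 and 35.3 in W20 NPC, and 63.6 and 58.9 in EGFP NPC. The groups stood in the same order as for Pou3f1 and did not overlap, and only the 2 arrays of W20 cells at 72 h were not well above background. In NPC it fell by 0.79 ± 0.19 with W20 (1.73-fold, adjusted p = 0.0196). At 72 h the difference was -0.90 ± 0.19 (adjusted p = 0.0142), and set against the detection limit Pou3f3 was at least 1.01-fold lower with W20. Over 72 h it fell by 1.35 ± 0.19 in EGFP cells (2.55-fold, adjusted p = 0.00163) and in W20 cells Pou3f3 ended at least 1.48-fold lower (-1.46 ± 0.19, adjusted p = 0.000992). The W20 effects of the stages did not differ by the test (-0.11 ± 0.269, 95% confidence interval -0.78 to 0.56, adjusted p = 0.812).

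Both W20 calls of Pou3f3 were fragile. In NPC the call ended without any 1 of the 4 NPC arrays (adjusted p = 0.0672 to 0.0845), with differences of -0.84 to -0.75. At 72 h it ended without EGFP 72 h replicate 1 (-0.79, adjusted p = 0.0722), with normexp background correction (-0.06, adjusted p = 0.689) and with the 4 arrays at 72 h fitted alone (adjusted p = 0.0607). The second Pou3f3 probe, A_52_P1008476, had the flag on 0 of 8 arrays, with signals of 3.91 to 6.53, and gives no second measurement of these differences.

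The other class III members gave no testable level. Pou3f2 (Brn2), which is used with other factors to turn fibroblasts into neurons, had a single probe, A_51_P487010, with replicates that disagreed. It gave 37.9 and 5.93 intensity units in W20 cells at 72 h, 4.02 and 3.62 in EGFP cells at 72 h, 26.6 and 4.81 in W20 NPC, and 11.5 and 3.95 in EGFP NPC. It was well above background on replicate 1 of W20 cells at 72 h and of W20 NPC and on no other array. In every group replicate 1 was the higher, and since no group had both arrays above background no test was made. Pou3f4 (Brn4), known from the inner ear and neural tube, gave 5.51 to 10.3 over the 8 arrays, none of them well above background.

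Pou2f1, the broadly expressed Oct1, moved the other way over time and was measured by 3 probes on all 8 arrays. Probe A_51_P152892 gave 1117 and 1186 intensity units in W20 cells at 72 h, 1022 and 1040 in EGFP cells at 72 h, 675 and 664 in W20 NPC, and 733 and 747 in EGFP NPC. Probe A_51_P361492 gave 2260 and 2456, 1941 and 2074, 1354 and 1407, and 1410 and 1450 in those groups. Probe A_52_P313246 gave 111 and 127, 107 and 117, 83.5 and 79.3, and 88.8 and 84.4. On all 3 probes both kinds of cells at 72 h were above both kinds of NPC, with no overlap. Changes over 72 h were common, with 69.7% of all probes called in W20 cells and 63.4% in EGFP cells. The files give A_51_P152892 and A_51_P361492 the same transcript accession and A_52_P313246 another, so the probes share a gene and are not independent replicates.

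Over 72 h all 3 probes rose. In W20 cells the differences were 0.85 ± 0.0486 (1.8-fold, adjusted p = 3.6e-05), 0.84 ± 0.074 (1.78-fold, adjusted p = 2e-04) and 0.61 ± 0.0877 (1.53-fold, adjusted p = 0.00147). In EGFP cells they were 0.41 ± 0.0486 (adjusted p = 0.000823), 0.42 ± 0.074 (adjusted p = 0.00406) and 0.30 ± 0.0877 (adjusted p = 0.0266). The last of these calls ended without any of 3 of the 4 EGFP arrays (adjusted p = 0.0686 to 0.118) and with normexp (0.01, adjusted p = 0.957), no filter on dim probes (adjusted p = 0.0586) and spike-in scaling per spot (adjusted p = 0.0738).

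With W20 at 72 h, A_51_P152892 rose by 0.31 ± 0.0486 (1.24-fold, adjusted p = 0.00515) and A_51_P361492 by 0.38 ± 0.074 (1.31-fold, adjusted p = 0.0104). The difference of A_52_P313246 was 0.24 ± 0.0877 and did not pass (adjusted p = 0.075). It passed with quantile scaling (0.27, adjusted p = 0.0453) and without W20 72 h replicate 1 (0.34, adjusted p = 0.0443). In NPC none of the 3 passed, with differences of -0.12 ± 0.0486 (adjusted p = 0.0893), -0.03 ± 0.074 (adjusted p = 0.767) and -0.07 ± 0.0877 (adjusted p = 0.561). The W20 effect at 72 h minus that in NPC was 0.44 ± 0.0687 for A_51_P152892 (adjusted p = 0.011), 0.42 ± 0.105 for A_51_P361492 (adjusted p = 0.0429) and 0.31 ± 0.124 for A_52_P313246 (adjusted p = 0.137). Scaling to spike-in controls per spot ended the W20 calls at 72 h (adjusted p = 0.0838 and 0.0603) and both calls of the difference (adjusted p = 0.13 and 0.189), and so did the same spike-in spots on every array (adjusted p = 0.103 and 0.0737 at 72 h, 0.127 and 0.191 for the difference). The call of the difference for A_51_P361492 also ended without any single array other than EGFP 72 h replicate 2 (0.34 to 0.48, adjusted p = 0.0557 to 0.121), and under normexp (adjusted p = 0.0689) or quantile scaling (adjusted p = 0.0503). Keeping dim probes in the test ended it too (adjusted p = 0.106).

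Pou4f1, Brn3a, had 2 probes that behaved differently. A_51_P385874 gave 255 and 249 intensity units in W20 cells at 72 h, 275 and 258 in EGFP cells at 72 h, 263 and 273 in W20 NPC, and 253 and 247 in EGFP NPC. It passed in none of the 5 comparisons, with differences between -0.05 and 0.12, and passed in NPC only when W20 NPC replicate 1 was left out (0.17, adjusted p = 0.0485). Its 95% confidence intervals for the change over 72 h were -0.13 to 0.09 in W20 cells and -0.09 to 0.13 in EGFP cells. A_52_P1171614 gave 17.6 and 13.7 in W20 cells at 72 h, 15.2 and 12 in EGFP cells at 72 h, 4.8 and 5.63 in W20 NPC, and 4.84 and 4.56 in EGFP NPC. All 4 values at 72 h were above all 4 in NPC and passed the weaker detection flag, while no NPC value did. None of the 8 was well above background, so the probe was not tested and no fold is given. The files give both probes the same transcript accession, and which of them reads the Pou4f1 transcript better was not tested.

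**Figure D2:**
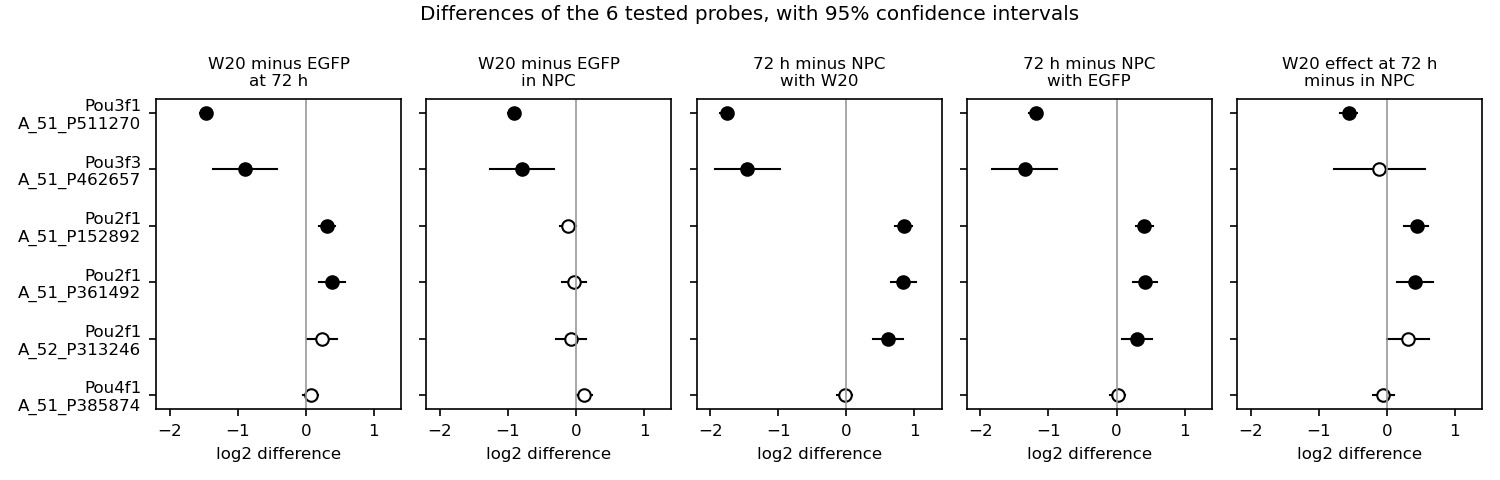
Log2 differences (x axis) of the 6 tested POU probes (rows) in the 5 comparisons (panels), with 95% confidence intervals as bars. Filled symbols passed the threshold. Pou3f1 and Pou3f3 lie left of 0 in the first 4 panels, Pou2f1 lies right of 0 in the panels for 72 h minus NPC, and Pou4f1 is open throughout.

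Member calls are set here against the shares of all probes, and 6 probes are too few to judge a difference in shares. Of the 6 tested member probes, 4 passed for W20 at 72 h, 2 higher and 2 lower, where 42.5% of all probes passed, 23.3% higher and 19.2% lower. In NPC, 2 passed as lower and 0 as higher, where 45.8% of all probes passed, 26.6% higher and 19.2% lower. Over 72 h 5 of 6 passed in W20 cells, 3 higher and 2 lower, against 69.7% of all, 34% higher and 35.7% lower. In EGFP cells 5 of 6 passed, 3 higher and 2 lower, against 63.4% of all, 32.1% higher and 31.3% lower. For the difference of the W20 effects 3 of 6 passed, 2 higher and 1 lower, against 21.9% of all, 10.3% higher and 11.6% lower. The median difference of the 6 at 72 h with W20 was 0.16, against 0.04 over all probes. These 6 are the member probes that passed the filter, of 4 genes. Every call as higher was of Pou2f1, which has 3 of the 6 probes. Pou5f1, Pou3f2 and Pou3f4 have no value in these counts.

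These background shares changed with the scaling, the background correction and the filter. Of the calls for W20 at 72 h, 54.9% were higher, against 40% with spike-in scaling per spot, 33% with the same spike-in spots on every array and 72.9% with no filter on dim probes. Of the calls of the difference of the W20 effects, 47.1% were higher, against 57.4% with normexp. With the spike-in scaling as first planned, described in the closing section, none of the 30 member differences passed (lowest adjusted p = 0.442). Of its calls, 0% were higher for W20 in NPC, against 58%, and 93.9% and 68.1% for the change over 72 h in W20 and EGFP cells, against 48.7% and 50.6%.

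**Figure D3:**
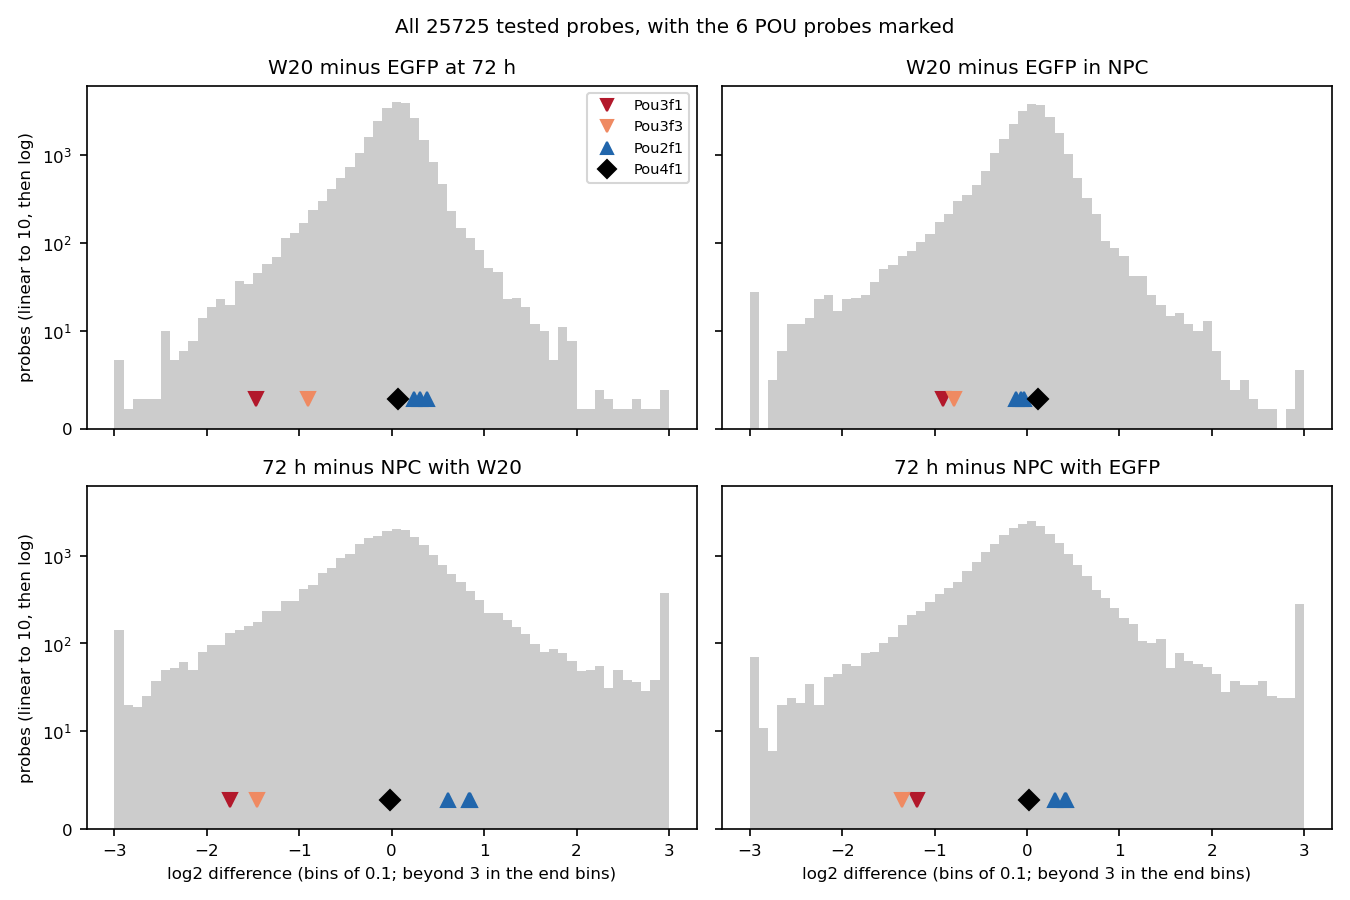
Number of probes (y axis, linear to 10 and then log) by log2 difference (x axis, bins of 0.1, with differences beyond 3 in the end bins) for all 25725 tested probes in 4 comparisons. Symbols mark the 6 POU probes at a fixed height. At 72 h with W20 the Pou3f1 difference of -1.47 lies in the lower tail, and the 3 Pou2f1 probes lie between 0.24 and 0.38.

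The genes whose profile was most like that of Pou3f1 were found over the 4 group means, each profile centred on its own mean, among 18079 probes of named genes well above background on all 8 arrays. They were Sardh, a mitochondrial enzyme that breaks down sarcosine (root mean square difference 0.0413 log2 units), Fkbp1b, a binding protein of calcium release channels (0.0843), and Ifi47, an interferon-induced GTPase (0.103). Over all candidates the median was 0.99. For Pou2f1, A_51_P152892 was most like Kcmf1, Emc2 and 1700020N15Rik, A_51_P361492 most like Asgr2, Ddah1 and Spef1, and A_52_P313246 most like Ralgapa1, Rab1a and Gabpb1, with differences of 0.0131 to 0.025. With 4 points a profile, many probes are close, and the 3 Pou2f1 probes named 9 different genes.

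Other POU and POU-homeobox genes were few and dim. Of 9 on the list 7 had a probe and 5 were tested. Pou5f2 fell over 72 h by 0.67 ± 0.162 in W20 cells (adjusted p = 0.0127) and by 0.73 ± 0.162 in EGFP cells (adjusted p = 0.0102). The first call ended without W20 NPC replicate 1 (adjusted p = 0.063), the second without EGFP 72 h replicate 1 (adjusted p = 0.0546) or EGFP NPC replicate 2 (adjusted p = 0.0505). Pou4f2, Brn3b of retinal ganglion cells, was well above background on both arrays of W20 cells at 72 h, at 27 and 42.4, and on no other array. The difference from EGFP cells at 72 h, whose values were 4.27 and 11.2, did not pass (adjusted p = 0.0764), so no fold is given. Pou4f2 entered the test only through W20 cells at 72 h, where it was high. In NPC it gave 4.68 and 25.6 with W20, and 16.6 and 18.9 with EGFP. Its second probe had the flag on 0 of 8 arrays. Pou2f2 and Pou2f3 were not well above background on any array.

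Over 72 h, while Pou3f1 and Pou3f3 fell, genes linked to class III factors in neural cells included large rises. Of 19 such genes 18 had a probe and 15 were tested, and 11 rose and 3 fell in W20 cells, against 34% of all probes higher. In EGFP cells 10 rose and 4 fell, against 32.1% of all higher. Of the 15, 4 (Dll1, Neurog2, Hes5 and Fabp7) entered the test only through groups at 72 h, where they were high, which favours a count as higher. Hes5 is among the 11 although it was not well above background on any W20 array, so the counts and medians are no support for a shift of the list. Neuron markers moved in the same comparison, 6 of 8 tested higher in W20 cells and 5 of 8 in EGFP cells with 0 lower (3 of the 8 entered only through groups at 72 h), and their part was not tested. The median difference of the class III list was 0.74 in W20 and 0.97 in EGFP cells, against -0.01 over all probes in each. The Notch ligand Dll1 was at least 7.92-fold and 9.21-fold higher at 72 h in W20 and EGFP cells, and Neurog2, a proneural factor, at least 6.65-fold and 5.52-fold. The stathmin Stmn2 rose by 3.38 ± 0.0465 and 3.11 ± 0.0465 in W20 and EGFP cells. Fabp7, a fatty acid binding protein of radial glia, was at least 7.14-fold higher at 72 h in W20 cells. Nes, the filament nestin, which holds a POU site in its neural enhancer, fell by 0.45 ± 0.0483 in W20 and by 0.33 ± 0.0483 in EGFP cells (adjusted p = 0.000427 and 0.00193).

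For W20 against EGFP the same list had 5 higher and 4 lower at 72 h and 5 higher and 4 lower in NPC, of 15 tested at each stage, with medians of 0.07 and 0.03. The shares of all probes were 23.3% higher and 19.2% lower at 72 h, and 26.6% and 19.2% in NPC. Egr2, which Pou3f1 switches on in Schwann cells, fell with W20 in NPC by 2.18 ± 0.0793, to 91 intensity units against 419 in EGFP NPC (adjusted p = 0.00015). Hes5, a Notch effector, was at least 2.17-fold lower with W20 at 72 h (adjusted p = 0.00697), which no longer passed with normexp (adjusted p = 0.0911). Hes5 entered the test only through EGFP cells at 72 h, where it was high, which favours a count as lower with W20.

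Genes that Oct4 controls in pluripotent cells were called in both directions, in shares to be read against those of all probes. Of 24, 21 had a probe and 14 were tested, and over 72 h 3 rose and 6 fell in W20 cells and 2 rose and 6 fell in EGFP cells, with medians of -0.29 and -0.17. Over all probes 34% were higher and 35.7% lower in W20 cells, and 32.1% and 31.3% in EGFP cells. Nanog was not matched to a probe. Dppa3, Dppa4, Gdf3, Nr0b1, Lin28a and Otx2 were not well above background on any array. Tfcp2l1, a factor of the naive pluripotent state, rose by 3.34 ± 0.305 in W20 cells (adjusted p = 0.000227) and by 2.49 ± 0.305 in EGFP cells (adjusted p = 0.000946). Esrrb, a nuclear receptor of the same network, was at least 4.61-fold lower at 72 h in W20 cells and fell by 2.61 ± 0.197 in EGFP cells (adjusted p = 2.78e-05 and 0.000144). Nr5a2, a nuclear receptor that can replace Oct4 in reprogramming, was at least 4.35-fold lower at 72 h in EGFP cells (adjusted p = 0.000642), and Zfp42 (Rex1) fell by 1.21 ± 0.0395 there (adjusted p = 8.78e-06). Of the 14, 1 (Nr5a2) entered the test only through NPC groups, where it was high, which favours a count as lower over 72 h. The secreted protein Spp1 fell by 1.83 ± 0.0397 in W20 cells. For W20 against EGFP, 2 rose and 2 fell at 72 h and 2 rose and 5 fell in NPC. The shares of all probes were 23.3% higher and 19.2% lower at 72 h, and 26.6% and 19.2% in NPC. Tfcp2l1 rose with W20 at 72 h by 1.20 ± 0.305 (adjusted p = 0.026), which did not pass when any array at 72 h was left out (adjusted p = 0.0749 to 0.109), and Esrrb was at least 1.14-fold lower (adjusted p = 0.00208), which did not pass with normexp (adjusted p = 0.0917). Nr5a2 fell with W20 in NPC by 1.08 ± 0.238 (adjusted p = 0.0149), a call that ended without 3 of the 4 NPC arrays (adjusted p = 0.0625 to 0.0642).

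**Figure D4:**
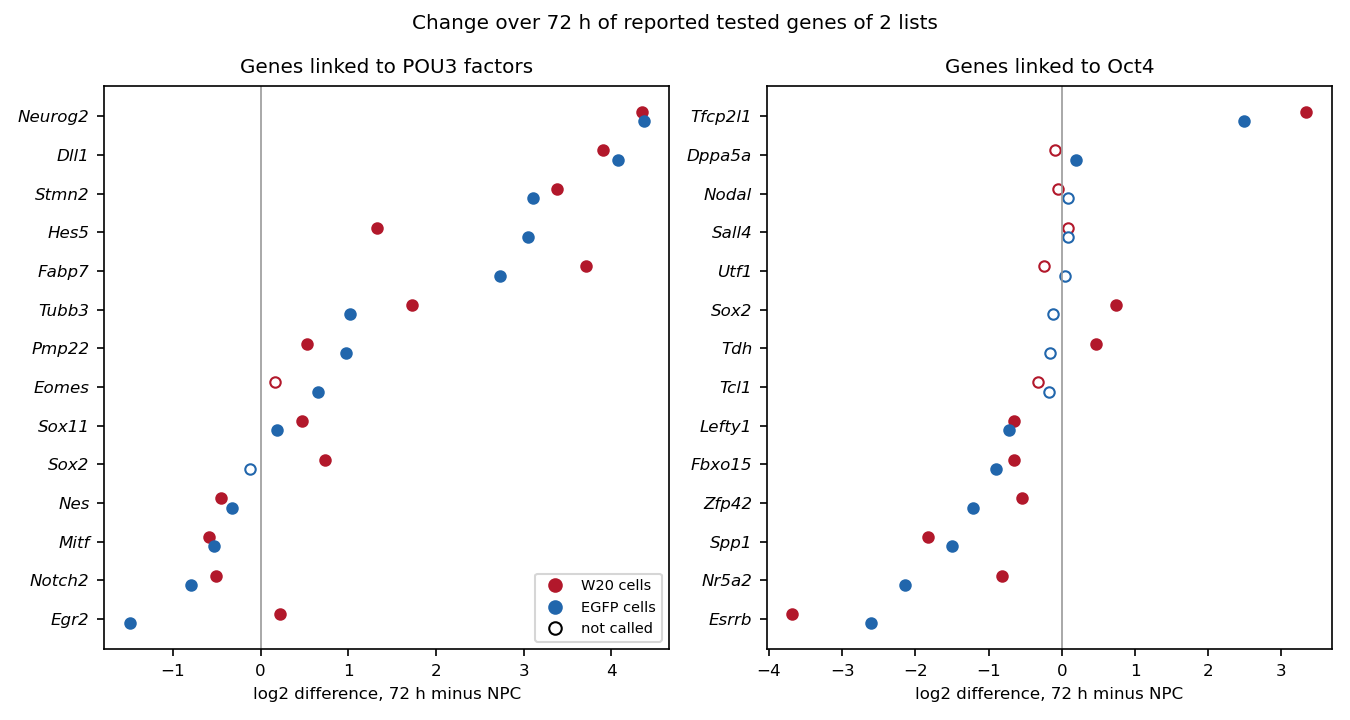
Log2 difference of 72 h minus NPC (x axis) for reported tested genes (rows) linked to class III POU factors, left, and to Oct4, right, in W20 cells (red) and EGFP cells (blue). Open symbols did not pass. In the left panel Neurog2, Dll1 and Stmn2 lie above 3 in both kinds of cells, and in the right panel Tfcp2l1 is the highest and Esrrb the lowest.

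Among proteins that work with POU factors, 24 genes of which 20 were tested, 5 rose and 4 fell with W20 at 72 h, against 23.3% and 19.2% of all probes, and 5 rose and 4 fell in NPC, against 26.6% and 19.2%. Sox2, the partner of Oct4 and of the neural class III factors, fell with W20 in NPC by 0.71 ± 0.0488 (adjusted p = 0.000434) and its difference at 72 h was 0.14 ± 0.0488 (adjusted p = 0.0649). Over 72 h Sox2 rose by 0.74 ± 0.0488 in W20 cells (adjusted p = 6.16e-05), with a difference of -0.12 ± 0.0488 in EGFP cells (adjusted p = 0.0854). Klf4, a reprogramming factor, rose with W20 by 0.52 ± 0.0372 at 72 h and 0.94 ± 0.0372 in NPC, and fell over 72 h by 1.28 ± 0.0372 in W20 and 0.86 ± 0.0372 in EGFP cells. Probes of Myc had opposite signs at 72 h and over time, so no direction is given. Pax6, a neural factor, rose over 72 h by 2.19 ± 0.047 in W20 and 2.01 ± 0.047 in EGFP cells. Klf5 fell by 1.12 ± 0.0415 in W20 cells.

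Genes linked to Pou4f1 in sensory neurons were few: of 8 tested, 3 rose and 4 fell over 72 h in each kind of cell, against 34% of all probes higher and 35.7% lower in W20 cells and 32.1% and 31.3% in EGFP cells. Avil, an actin-binding protein of sensory neurons, rose by 4.45 ± 0.0751 in W20 cells and by 3.33 ± 0.0751 in EGFP cells (adjusted p = 8.8e-07 and 3.22e-06). Gap43, a growth cone protein, was at least 2.4-fold and 3.1-fold higher at 72 h in W20 and EGFP cells. Of the 8, 1 (Gap43) entered the test only through groups at 72 h, where it was high, which favours a count as higher. Runx1 and Runx3, factors of sensory neuron subtypes, fell by 1.43 ± 0.0617 and 1.05 ± 0.0527 in W20 cells. With W20 in NPC, Avil fell by 1.02 ± 0.0751 and Runx3 rose by 1.04 ± 0.0527 (adjusted p = 0.000499 and 0.000227). The receptor Ntrk2 and the factors Tlx3 and Neurod4 were not well above background on any array.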

How the data were processed

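Cy3-labelled total RNA was hybridised per the labels, 1 array a sample, and the titles give each array's group and replicate number. The deposited scanner files hold spot intensity on a linear scale, which per the file headers were background-subtracted and detrended by Feature Extraction version 10.7.3.1. Signals were scaled to the array's 75th percentile (826.5 to 938 intensity units), taken as log2, and spots of a probe averaged. Control and outlier spots were left out. The number of arrays limits the precision. Accessions were matched to a RefSeq table of GRCm38.p6, which named 27584 of 41174 probes; 13590 stayed unnamed but were tested.

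One model of 4 group means over 8 arrays was fitted per probe with limma 3.58.1 in R 4.3.3 (4 residual and 1.56 prior degrees of freedom). "At least N-fold" sets the bright group's mean against, per array of the dim group, the higher of the lowest well-above-background signal and the probe's own. Of several probes of a listed gene the brightest is counted. The fit was tested on simulated data. The members and lists were chosen with earlier results of these data known. Of the other lists, genes were named where they passed at 1 log2 unit or more, at most 5 per list and comparison, with Sox2, Nanog, Klf4, Myc and Nes; Pou5f2 and Pou4f2 fall outside that rule and were chosen after their values were seen, as were genes named as not detected. Some listed genes enter the counts but are not reported here. Processed signals of dim spots are surrogates above 0, per the file headers.

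The deposited value table holds the authors' log2 values with scale and centring unstated. Its NPC columns equalled the scanner arrays within 0.01 after a shift of 9.66 to 9.71, which also gives the direction, and its column medians were -3.83 and -3.91 (W20 72 h), -3.78 and -3.88 (EGFP 72 h), -3.82 and -3.79 (W20 NPC) and -3.79 and -3.73 (EGFP NPC). Its columns for replicate 1 at 72 h equalled the mean of the NPC columns within 1e-06, so the table served only as an alternative for W20 in NPC. Alternatives also covered background, scaling, filters, single arrays and the replicate block. Normexp used the median spot signal, since the scanner files hold no mean signal. Slide as a block could not be fitted, because each slide held 1 stage, and protein identity was not analysed here.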

Additional observations from a re-analysis of the deposited data

Results flagged for a closer look

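The W20 effect differed between the stages, by the test of the difference itself, for 3 of the 6 tested probes. These 3 were of 2 genes, and 21.9% of all probes passed that test, 10.3% higher and 11.6% lower. For Pou3f1 the W20 effect at 72 h minus that in NPC was -0.56 ± 0.0533 log2 units (SE, adjusted p = 0.00247, limma). For Pou2f1 it was 0.44 ± 0.0687 with probe A_51_P152892 (adjusted p = 0.011) and 0.42 ± 0.105 with probe A_51_P361492 (adjusted p = 0.0429). The call of A_51_P361492 held under 5 of 18 alternatives, and both Pou2f1 calls ended under each spike-in scaling. The third Pou2f1 probe, A_52_P313246, had 0.31 ± 0.124 and did not pass (adjusted p = 0.137). Stage and slide cannot be told apart in these differences.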

How the results depend on the processing

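For 30 member differences and 543 alternative values, 473 kept their direction and side of the threshold, 46 lost the call, 4 gained one and 20 changed sign. Apart from the spike-in scaling as planned, all 5 Pou3f1 calls held under every alternative run. For 44 differences of other listed genes and 796 alternative values, 738 kept the call, 54 lost it and 4 changed sign, all 4 of them under that scaling.

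The spike-in scaling as planned took each array's median over its spike-in spots, outliers dropped array by array. It ran over 241 to 256 spots that differed between arrays and gave medians of 12.49 to 14.91 log2 units. Its counts were 18 and 0 for W20 in NPC and at 72 h, 141 and 462 for the change over 72 h in EGFP and W20 cells, and 0 for the difference of the W20 effects, with 93 and 213 probes at an unadjusted p under 0.05 for the counts of 0. The shifts of the median of all probes were -1.17, 0, -0.53, 0.65 and 1.17 in that order. After these counts were seen, 2 other versions were added: the same 227 spots on every array gave 6726, 5654 and 2298 calls (W20 in NPC, W20 at 72 h, difference of the W20 effects), and deviations per spot 6463, 5302 and 2071, against 11782, 10929 and 5623 in the reported fit.

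Under the planned spike-in scaling signs changed for Pou4f1 in W20 against EGFP NPC (-1.10), over 72 h (0.64 in W20 and -0.50 in EGFP cells) and in the difference of the W20 effects (1.14). They changed for the 3 Pou2f1 probes over 72 h in EGFP cells (-0.12, -0.11 and -0.22), for Pou3f1 and Pou3f3 in the difference (0.63 and 1.08), and for Klf4 (-0.29), Nes (-1.03) and Runx3 (-0.18) with W20 in NPC and Nes over 72 h with W20 (0.21). Other changes of sign were in differences that had not passed. With normexp they were Pou4f1 over 72 h in EGFP cells (-0.06) and, in the difference, Pou3f3 (0.31) and Pou4f1 (0.05). With median scaling they were Pou2f1 A_51_P361492 with W20 in NPC (0.01) and Pou4f1 over 72 h with W20 (0.02, and 0.02 with the same spike-in spots on every array). Without single arrays, Pou3f3 in the difference ranged from -0.39 to 0.18, Pou4f1 in the difference from -0.10 to 0, Pou4f1 over 72 h with W20 from -0.07 to 0.02 and Pou2f1 A_51_P361492 in NPC from -0.08 to 0.02.

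Normexp called 3637 and median scaling 3525 probes in the difference of the W20 effects, and leaving out single arrays 3142 to 4291. With no filter on dim probes 16532 probes passed for W20 at 72 h and 2913 in the difference. These were 40.2% and 7.07% of 41174 probes, against 42.5% and 21.9% of 25725 in the reported fit. With the brightest probe of each named gene, which leaves 13615 features, 7562 and 7189 passed for W20 in NPC and at 72 h. Over 72 h 9523 and 10169 passed in EGFP and W20 cells. As shares these were 55.5%, 52.8%, 69.9% and 74.7%, against 45.8%, 42.5%, 63.4% and 69.7% in the reported fit. The cause was not tested for normexp, median scaling and the dim probes. The octamer with 1 letter free was in 1 member promoter, the exact one in 0.

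Replicate numbers were not taken to pair the arrays: deviations of same-numbered arrays correlated at -0.14 to 0.25, above 0.1 in 3 of 6 pairs of groups. With the replicate block 11601, 10664, 16374, 17989 and 5127 probes passed (W20 in NPC, W20 at 72 h, EGFP and W20 cells over 72 h, difference), and Pou2f1 A_51_P152892 passed in NPC (-0.12, adjusted p = 0.0468). Fitted within 1 slide, 10580 probes passed for W20 in NPC and 8109 at 72 h. Probes near the detection limit, Pou3f3 above all, limit what can be said.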
